A study of Mus musculus with 6 samples.

Results

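DNA replication and nucleotide supply was described through 40 genes, which code for the replicative helicase and its loaders, the polymerases, the sliding clamp and its loader, the enzymes that make DNA precursors, the factors that copy chromatin at the fork, and the switch into S phase. Members were chosen by gene symbol with earlier results of these data known. Each gene was read from its brightest probe set, judged by the mean of all 6 arrays. Of the 40, 39 had a probe set of their own among 18193 genes with one, and Chaf1a was not analysed here. The samples were 3 cultures of E-FABP knockout macrophages and 3 of wild-type macrophages, both labelled C57BL/6. Fabp5 encodes E-FABP, a protein that binds fatty acids and carries them within the cell. Bone marrow was taken from naive mice of 6 to 8 weeks, grown for 7 days with the growth factor GM-CSF at 20 ng/ml, and then kept for 18 h beside E0771 cells, a mouse breast cancer line, in a culture insert. Every sample of both genotypes had met the tumour cells, so their effect was not analysed here. Total RNA of the whole culture was hybridised to Affymetrix arrays, and the deposited values are log2 intensities of probe sets.

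Before a cell enters S phase, ORC, CDC6 and CDT1 load a ring of MCM2 to MCM7 on each origin, and CDC45 and the GINS complex then turn that ring into the moving helicase. Polymerase alpha with its primase starts each strand, polymerases delta and epsilon extend it on the PCNA clamp, and ribonucleotide reductase, thymidylate synthase and thymidine kinase supply the building blocks. Most of these genes are known targets of the E2F transcription factors, which the retinoblastoma protein holds in check until G1 ends. Macrophages are largely non-dividing, whereas bone marrow cultures grown with GM-CSF also hold precursors that still divide.

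The arrays carried their labels. The brighter Fabp5 probe set read 8.13, 8.31 and 8.39 on knockout arrays 1, 2 and 3, against 14.47, 14.41 and 14.45 on the wild-type arrays, and fell by 6.17 on the log2 scale (SE 0.08, limma adjusted p = 1.96e-09). The labels do not say which part of the gene was deleted. Macrophage markers were bright, with means over the 6 arrays of 13.88 for Csf1r, the receptor of macrophage colony-stimulating factor, 13.23 for Cd68 and 11.55 for Adgre1 (log2 intensity). None of these passed the test for genotype, but Fcgr1 (-1.13) and Mertk (-0.46) of the same list fell. In that list 8 of 11 means were lower in knockout. The neutrophil marker S100a8 read 13.06, so brightness does not show that the cultures held only macrophages. Array medians were 5.60 to 5.64. Over probe sets, which do not count as independent replicates, Pearson's r was 0.9965 to 0.9977 for arrays of the same genotype and 0.9914 to 0.9961 across genotypes. Samples are labelled as biological replicates, but nothing says that separate animals gave them, so the p-values measure only the spread between these samples. With 3 arrays per genotype, precision is limited by their number.

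Replication genes were higher in the knockout cultures, led by the ribonucleotide reductase subunit Rrm2 (2.28-fold), the chromatin remodeller Hells (2.03-fold), the licensing factor Cdc6 (1.95-fold) and 6 of the 7 MCM genes. Among the 39 measured members 18 rose and 0 fell, and 21 missed the threshold of the test (limma, Benjamini-Hochberg adjusted over all 45037 probe sets, threshold 0.05). That is 46.2% of the members, where 2.85% of all genes rose and 2.05% fell, or 4.9% in either direction. The list was drawn up with earlier results of these data known, so this contrast is a description and no test of enrichment. At an unadjusted p under 0.05, 26 members were higher and 0 lower. The 3 knockout values all lay above the 3 wild-type values in 26 members, or 66.7%, against 20.7% of all genes, and all lay below them in 1, where 11.2% of all genes did. The median change of the members was 0.40 on the log2 scale (1.32-fold), beside 0.01 for all genes, and 33 of the 39 had a higher mean in knockout, as had 53.1% of all genes. The 18 rises ran from 0.33 to 1.19 on the log2 scale, with limma adjusted p between 0.0127 and 0.0425. RNA came from the whole culture, so a larger share of dividing cells and more of these transcripts per cell cannot be told apart.

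The number of calls depended on single arrays and on the scaling. With knockout array 1 left out, 0 members rose (limma; 23 were higher at an unadjusted p under 0.05), with knockout array 2 left out 1 rose, and with knockout array 3 left out 20 did. Leaving out wild-type array 1 gave 2 rises, wild-type array 2 gave 1, and wild-type array 3 gave 8. After quantile normalization 10 members rose, and with a floor at the 20th percentile of all values 0 did (limma; 24 were higher and 1 lower at an unadjusted p under 0.05). In the 6 fits with an array left out the members' median change stayed between 0.33 and 0.47, and between 23 and 28 members were higher at an unadjusted p under 0.05.

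**Figure D1:**
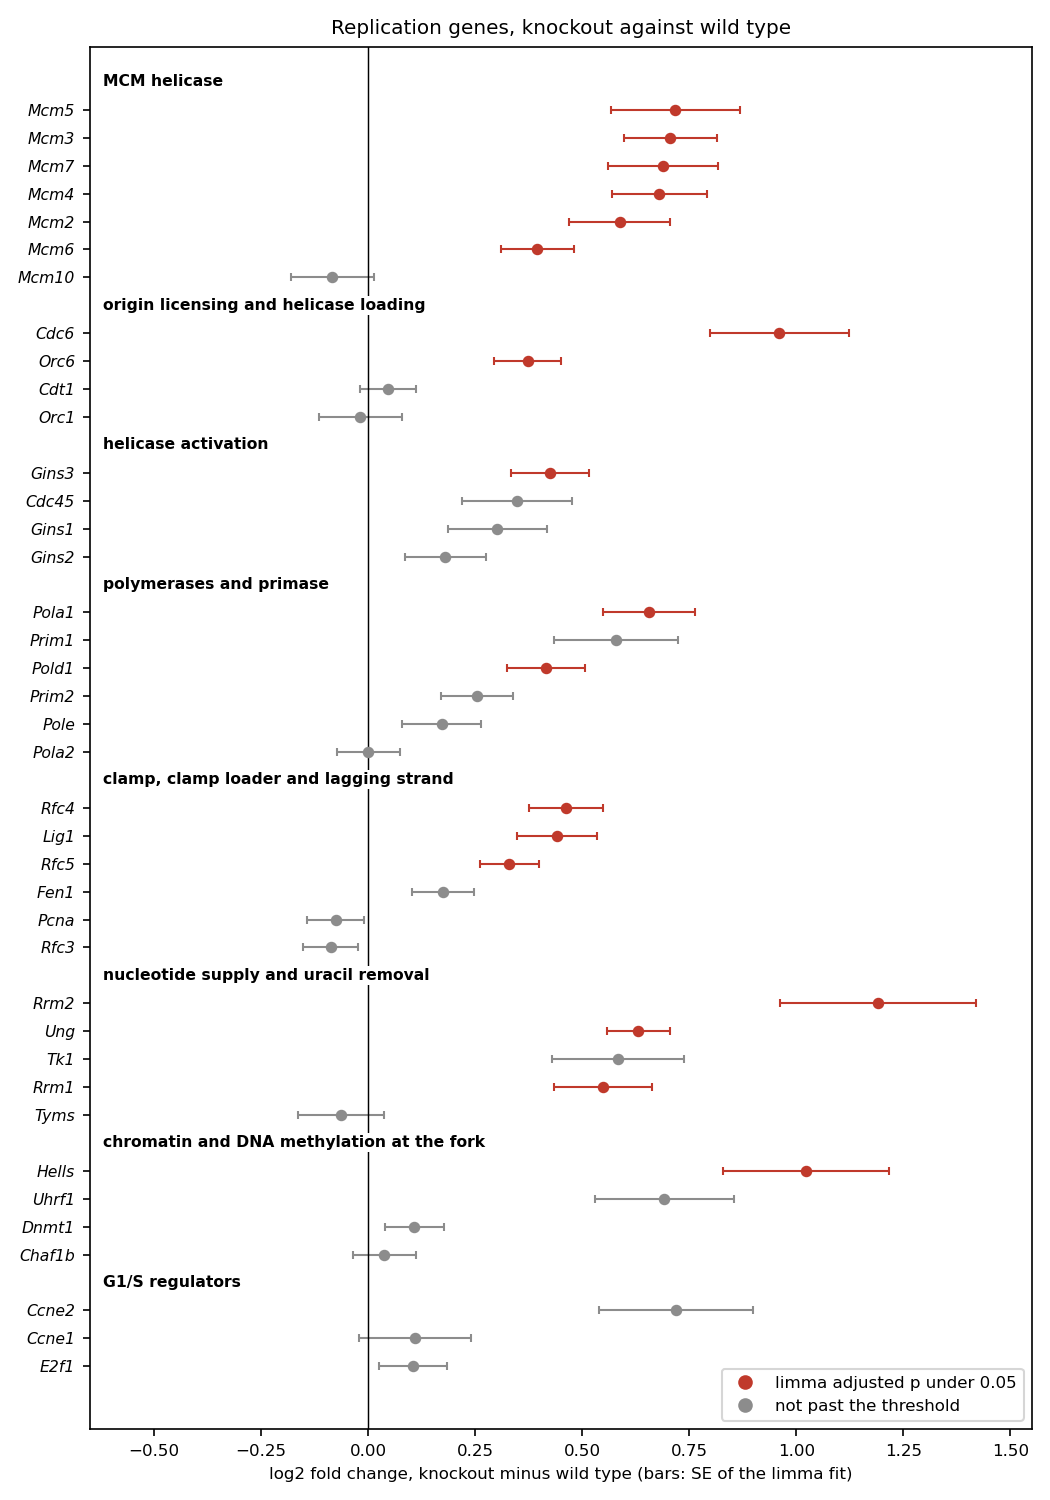
Log2 fold change (knockout minus wild type) of the 39 measured members, grouped by role, with bars for the SE of the limma fit (3 arrays per genotype) and red points for an adjusted p under 0.05. Rrm2, Hells and Cdc6 lie farthest to the right at 1.19, 1.02 and 0.96, Mcm2 to Mcm7 between 0.40 and 0.72, and Mcm10, Orc1, Pola2, Pcna, Rfc3 and Tyms at or below 0.

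The promoters of the members are shown because E2F sites there are the best known feature these genes share. The 250 bases before the RefSeq gene start (build GRCm38.p6) were at hand for 34 members, including Chaf1a. They were searched on both strands for 4 words of the E2F core, TTTCCCGC, TTTGGCGC, TTTCGCGC and TTTGCCGC. At least 1 of these words stood in 11 of the 34 members, or 32.4%, beside 3.15% of 14452 genes with a probe set and a promoter. Among members that rose it stood in 7 of 17, and among those that did not pass in 4 of 16. Of all genes that rose, 5.69% held a word, and of all that fell, 3.06%. A match is a description of letters and shows no binding. For Mcm7, Uhrf1 and Dnmt1, which have several listed starts, the word stood before 1 of them. The CCAAT box, searched as CCAAT on both strands, stood in 19 of the 34 members (55.9%, beside 39.4% of genes with a probe set), and the word TTTGAA of the cell cycle homology region in 5 (14.7%, beside 14.1%). The stretches of the 7 rising members with an E2F word follow, each with up to 25 bases on either side, read along the strand of the gene, the E2F words in capitals.
Mcm5, chr8:75109331-75109392, plus strand: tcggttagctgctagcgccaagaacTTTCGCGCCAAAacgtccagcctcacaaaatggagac
Mcm6, chr1:128359720-128359840, minus strand: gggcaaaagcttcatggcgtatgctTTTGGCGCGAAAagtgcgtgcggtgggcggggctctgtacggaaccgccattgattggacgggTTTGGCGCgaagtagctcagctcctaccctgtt
Mcm7, chr5:138172016-138172073, minus strand: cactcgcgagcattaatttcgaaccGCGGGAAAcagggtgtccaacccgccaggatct
Cdc6, chr11:98907988-98908045, plus strand: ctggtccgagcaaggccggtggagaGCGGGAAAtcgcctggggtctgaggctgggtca
Gins3, chr8:95633493-95633550, plus strand: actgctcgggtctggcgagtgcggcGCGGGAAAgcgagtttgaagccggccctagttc
Pola1, chrX:93632261-93632318, minus strand: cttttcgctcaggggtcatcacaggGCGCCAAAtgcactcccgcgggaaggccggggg
Hells, chr19:38930903-38930960, plus strand: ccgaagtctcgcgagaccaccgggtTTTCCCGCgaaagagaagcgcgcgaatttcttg

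The capitals of Mcm5 and the first capitals of Mcm6 are each a pair of overlapping words, in opposite orientations. A single word stands in the others, and the Mcm6 stretch holds a further one nearer the gene start. Orc1 and Rfc3 also held an E2F word, the first 19 and the second 2 bases before the start, and neither passed the test for genotype:
Orc1, chr4:108579402-108579453, plus strand: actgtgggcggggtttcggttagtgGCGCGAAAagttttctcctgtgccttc
Rfc3, chr5:151651209-151651243, minus strand: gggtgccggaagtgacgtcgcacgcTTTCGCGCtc

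MCM2 to MCM7 form the helicase ring, and all 6 genes rose. Mcm3 read 8.67, 8.76 and 8.33 on the knockout arrays, against 7.84, 7.83 and 7.96 on the wild-type arrays, a rise of 0.71 (SE 0.11, limma adjusted p = 0.0201). For Mcm4 the values were 9.22, 9.20 and 8.86 on the knockout arrays, against 8.42, 8.28 and 8.54 on the wild-type arrays, and it rose by 0.68 (SE 0.11, limma adjusted p = 0.0217). Mcm5 had 8.62, 8.79 and 8.20 on the knockout arrays, against 7.83, 7.62 and 7.99 on the wild-type arrays, and rose by 0.72 (SE 0.15, limma adjusted p = 0.0371). In all 3 of these genes knockout array 3 was the lowest of its genotype and wild-type array 3 the highest of its own, and the genotypes did not overlap. Mcm7 read 8.95, 9.19 and 8.66 on the knockout arrays, against 8.30, 8.09 and 8.33 on the wild-type arrays, a rise of 0.69 (SE 0.13, limma adjusted p = 0.0273). Mcm2 gave 9.20, 9.20 and 8.77 on the knockout arrays, against 8.45, 8.40 and 8.56 on the wild-type arrays, and rose by 0.59 (SE 0.12, limma adjusted p = 0.034). The smallest rise of the ring was that of Mcm6, with 9.26, 9.37 and 9.10 on the knockout arrays, against 8.81, 8.80 and 8.94 on the wild-type arrays, or 0.40 (SE 0.09, limma adjusted p = 0.0412) on the log2 scale. The 6 genes had 13 further probe sets, of which 12 had a higher mean in knockout and 7 rose by themselves, where 2.06% of all probe sets rose and 1.7% fell. All 3 further probe sets of Mcm7 were among them, as were 2 of the 4 of Mcm3. Mcm10, a separate factor that binds the ring when the origin fires, did not pass: it read 6.30, 6.32 and 6.05 on the knockout arrays, against 6.32, 6.43 and 6.17 on the wild-type arrays, a difference of -0.08 (SE 0.10, limma adjusted p = 0.693), with overlapping genotypes. Its other probe sets differed by -0.27 and 0.06.

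**Figure D2:**
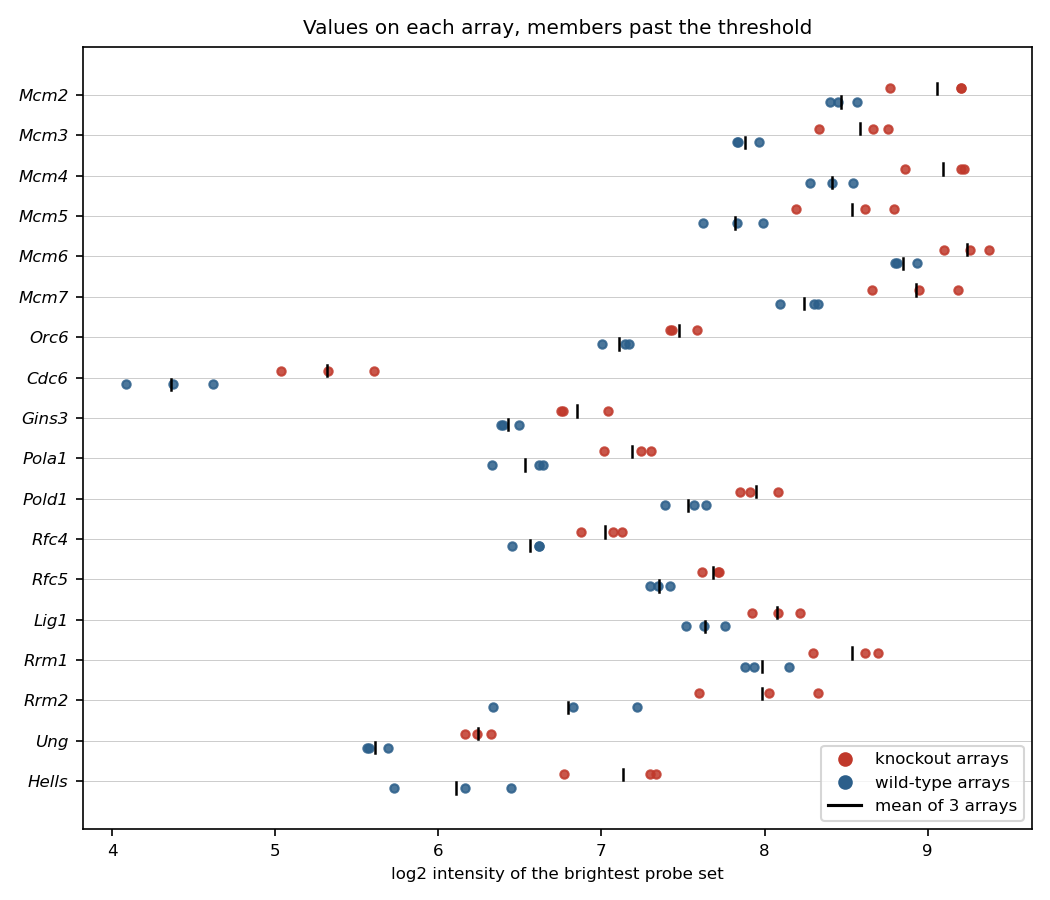
Log2 intensity of the 18 members that rose, with 1 point per array, knockout arrays in the upper row of each gene and wild-type arrays in the lower, and a black bar at the mean of 3 arrays. In every row the red and blue points do not overlap; the distance between the lowest knockout and the highest wild-type array is 0.15 in Rrm1 and 0.47 in Ung.

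Among the genes that load the ring, Cdc6 and Orc6 rose and Cdt1 and Orc1 did not pass. Cdc6, the ATPase that recruits the helicase to the origin, read 5.33, 5.60 and 5.03 on the knockout arrays, against 4.37, 4.09 and 4.62 on the wild-type arrays. Its rise of 0.96 (SE 0.16, limma adjusted p = 0.0223) was the 12th largest among the 18193 genes. The wild-type values of 4.09 to 4.62 were close to the 20th percentile of all values (4.07), so Cdc6 was dim there. Orc6, the smallest subunit of the origin recognition complex, had 7.42, 7.58 and 7.43 on the knockout arrays, against 7.14, 7.00 and 7.17 on the wild-type arrays, and rose by 0.37 (SE 0.08, limma adjusted p = 0.0374). Cdt1, which brings the ring to the origin together with CDC6, read 9.97, 9.99 and 9.91 on the knockout arrays, against 9.85, 9.90 and 9.97 on the wild-type arrays, a difference of 0.05 (SE 0.07, limma adjusted p = 0.757). Cdt1 is controlled largely through breakdown of its protein, which arrays do not measure. Orc1, the largest subunit of the origin complex, differed by -0.02 (SE 0.10, limma adjusted p = 0.947).

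Of the helicase activators only Gins3 passed, although all 4 means of the brightest probe sets were higher in knockout. GINS3 is a subunit of the 4-part GINS complex. The Gins3 values were 6.75, 7.04 and 6.76 on the knockout arrays, against 6.40, 6.38 and 6.50 on the wild-type arrays, a rise of 0.43 (SE 0.09, limma adjusted p = 0.0389). Cdc45, the partner of GINS on the ring, read 6.33, 6.73 and 6.17 on the knockout arrays, against 6.04, 6.03 and 6.12 on the wild-type arrays, and knockout array 3 lay just above the wild-type arrays (difference 0.35, SE 0.13, limma adjusted p = 0.167). With knockout array 2 left out the Cdc45 difference was 0.19. The other Cdc45 probe set, with a mean of 6.11 beside 6.24, differed by -0.07 (SE 0.12, limma adjusted p = 0.811) with overlapping genotypes. The mean of both probe sets differed by 0.14. Gins1 and Gins2 had overlapping genotypes, with differences of 0.30 (SE 0.12, limma adjusted p = 0.185) and 0.18 (SE 0.09, limma adjusted p = 0.33).

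Among polymerases and primase, Pola1 and Pold1 rose. Pola1, the catalytic subunit of polymerase alpha that starts each strand, read 7.30, 7.24 and 7.01 on the knockout arrays, against 6.62, 6.33 and 6.64 on the wild-type arrays, a rise of 0.66 (SE 0.11, limma adjusted p = 0.0217). Its other, dimmer probe set did not pass (difference 0.00, limma adjusted p = 0.999), and the mean of its probe sets rose by 0.33 (limma adjusted p = 0.0369). Pola2, the accessory subunit of the same enzyme, read 7.71, 7.56 and 7.59 on the knockout arrays, against 7.60, 7.71 and 7.55 on the wild-type arrays, a difference of 0.00 (SE 0.07, limma adjusted p = 1). Whether the catalytic and the accessory subunit differ was not tested. Pold1, the catalytic subunit of polymerase delta, had 7.91, 8.08 and 7.85 on the knockout arrays, against 7.57, 7.39 and 7.64 on the wild-type arrays, and rose by 0.42 (SE 0.09, limma adjusted p = 0.0425). Its other probe set overlapped between genotypes and did not pass (difference 0.30, SE 0.12, limma adjusted p = 0.215). The primase genes did not pass with their brightest probe sets: Prim1, the catalytic subunit, read 6.83, 6.99 and 6.44 on the knockout arrays, against 6.05, 6.08 and 6.39 on the wild-type arrays (difference 0.58, SE 0.14, limma adjusted p = 0.0612). Prim2, the regulatory subunit, read 7.09, 6.87 and 7.08 on the knockout arrays, against 6.85, 6.73 and 6.70 on the wild-type arrays (difference 0.25, SE 0.08, limma adjusted p = 0.129). In both genes the genotypes did not overlap, in Prim2 by a gap of only 0.01. The other probe sets of Prim2 went both ways, by 0.47 (SE 0.11, limma adjusted p = 0.0504) and -0.21 (SE 0.07, limma adjusted p = 0.141), each without overlap. The other probe set of Prim1 rose by 0.73 (SE 0.11, limma adjusted p = 0.0177). Pole, the catalytic subunit of polymerase epsilon, overlapped between genotypes (difference 0.17, SE 0.09, limma adjusted p = 0.341).

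Of the clamp, its loader and the lagging strand enzymes 3 of 6 rose. Rfc4 and Rfc5, small subunits of the loader that opens the PCNA ring, rose. Rfc4 read 7.07, 7.12 and 6.88 on the knockout arrays, against 6.62, 6.45 and 6.62 on the wild-type arrays, a rise of 0.46 (SE 0.09, limma adjusted p = 0.0273), and its other probe set rose by 0.77 (SE 0.10, limma adjusted p = 0.0158). Rfc5 read 7.72, 7.71 and 7.62 on the knockout arrays, against 7.30, 7.42 and 7.35 on the wild-type arrays, a rise of 0.33 (SE 0.07, limma adjusted p = 0.0372). Rfc3, a further small subunit, lay slightly lower in knockout, with 7.12, 7.12 and 7.16 on the knockout arrays, against 7.18, 7.27 and 7.20 on the wild-type arrays, a difference of -0.09 (SE 0.06, limma adjusted p = 0.493) that did not pass. Lig1, the ligase that joins Okazaki fragments, had 8.08, 8.22 and 7.93 on the knockout arrays, against 7.63, 7.52 and 7.76 on the wild-type arrays, and rose by 0.44 (SE 0.09, limma adjusted p = 0.0391). Fen1, the nuclease that trims their flaps, read 10.43, 10.30 and 10.24 on the knockout arrays, against 10.19, 10.11 and 10.14 on the wild-type arrays. That probe set differed by 0.17 (SE 0.07, limma adjusted p = 0.217) without overlap, while the other rose by 0.52 (SE 0.10, limma adjusted p = 0.0289). Pcna, the clamp itself, read 13.10, 13.09 and 13.03 on the knockout arrays, against 13.09, 13.21 and 13.14 on the wild-type arrays. Its difference of -0.08 (SE 0.07, limma adjusted p = 0.575) was among the 6 below 0, and its mean level stood at percentile 99.3 of all probe sets.

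Ribonucleotide reductase rose in both subunits of its S-phase form. Rrm2, the small subunit whose supply sets much of the enzyme's activity, read 8.03, 8.33 and 7.60 on the knockout arrays, against 6.83, 6.34 and 7.22 on the wild-type arrays. Its rise of 1.19 (SE 0.23, limma adjusted p = 0.0295) was the third largest of the 18193 genes (rank 3), and knockout array 2 and wild-type array 2 lay at the extremes. Another probe set of Rrm2 rose by 1.17 (SE 0.21, limma adjusted p = 0.0261), and a dimmer one differed by 0.45 without passing. Rrm1, the large subunit, had 8.61, 8.70 and 8.30 on the knockout arrays, against 7.88, 7.94 and 8.15 on the wild-type arrays, and rose by 0.55 (SE 0.11, limma adjusted p = 0.0367). Ung, which removes uracil built into DNA in place of thymine, read 6.24, 6.33 and 6.16 on the knockout arrays, against 5.56, 5.69 and 5.58 on the wild-type arrays. Its rise of 0.63 (SE 0.07, limma adjusted p = 0.0127) carried the smallest p of the members, and it kept its call in 13 of 15 alternative settings. Tk1, the cytosolic thymidine kinase of S phase, read 5.71, 5.94 and 5.35 on the knockout arrays, against 5.02, 4.91 and 5.32 on the wild-type arrays, and the difference of 0.58 (SE 0.15, limma adjusted p = 0.0705) did not pass. Tyms, thymidylate synthase, was dim: its 4 own probe sets had means between 3.40 and 3.92 in either genotype, under the 20th percentile of all values.

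Of the chromatin factors at the fork, Hells rose and Uhrf1 lay just outside the threshold. Hells, a remodelling ATPase needed for DNA methylation, read 7.30, 7.33 and 6.77 on the knockout arrays, against 6.16, 5.73 and 6.44 on the wild-type arrays. It rose by 1.02 (SE 0.19, limma adjusted p = 0.0286), the 8th largest rise of the 18193 genes. Its other probe sets, both dimmer, differed by -0.09 and 0.06, so the rise rests on the brightest probe set. Uhrf1, which recruits the maintenance methyltransferase to newly copied DNA, read 7.24, 7.49 and 6.86 on the knockout arrays, against 6.60, 6.25 and 6.67 on the wild-type arrays, a difference of 0.69 (SE 0.16, limma adjusted p = 0.0515). Dnmt1, that methyltransferase, read 9.33, 9.42 and 9.26 on the knockout arrays, against 9.25, 9.19 and 9.25 on the wild-type arrays, a difference of 0.11 (SE 0.07, limma adjusted p = 0.426), and in its 3 probe sets the knockout values all lay above the wild-type values. Chaf1b, a subunit of the chromatin assembly factor, overlapped (difference 0.04, SE 0.07, limma adjusted p = 0.829).

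None of the 3 regulators of the G1 to S transition passed with its brightest probe set (limma; 1 was higher at an unadjusted p under 0.05). Ccne2, which codes for cyclin E2, a partner of the kinase CDK2, read 7.00, 7.21 and 6.39 on the knockout arrays, against 6.23, 6.19 and 6.02 on the wild-type arrays, a difference of 0.72 (SE 0.18, limma adjusted p = 0.0616) without overlap. Ccne1, the gene of cyclin E1, differed by 0.11 (SE 0.13, limma adjusted p = 0.704) with a probe set of the _x_at kind, whose probes may bind other transcripts too, as may those used for Mcm4, Mcm5, Pold1, Fen1, Rrm2 and Dnmt1, and its other probe set rose by 0.41 (SE 0.08, limma adjusted p = 0.034). E2f1, the gene of an activating E2F factor, read 7.29, 7.30 and 7.48 on the knockout arrays, against 7.32, 7.15 and 7.28 on the wild-type arrays, a difference of 0.10 (SE 0.08, limma adjusted p = 0.517).

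Just inside the threshold lay Pold1 (limma adjusted p = 0.0425) and Mcm6 (0.0412), and just outside it Uhrf1 (0.0515), Prim1 (0.0612), Ccne2 (0.0616) and Tk1 (0.0705). Uhrf1, Ccne2, Prim1 and Tk1 had changes of 0.58 to 0.72, larger than those of Mcm6 and Pold1 but with a wider spread between arrays. Of the 23 further probe sets of the members that rose, 20 had a higher mean in knockout and 9 rose, and of the 25 of members that did not pass, 17 had a higher mean and 3 rose.

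The arrays of a genotype were not alike in these genes, and they ranked in much the same order from gene to gene. Knockout array 2 was the highest of all 6 arrays in 25 of 39 members, and wild-type array 2 the lowest of all in 24. Within the knockout genotype array 3 was the lowest in 30 members. Of the wild-type arrays, array 3 was the highest in 24. Where the genotypes did not overlap with knockout higher, knockout array 3 was the closest to wild type in 23 of 26 members, and wild-type array 3 the closest to knockout in 19. The members' mean deviation from their own gene means (log2) was 0.24, 0.31 and 0.03 on knockout arrays 1, 2 and 3, against -0.19, -0.28 and -0.12 for wild-type arrays 1, 2 and 3. The genotypes did not overlap in this average, but knockout array 3 was nearer to the highest wild-type array than to knockout array 1.

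**Figure D3:**
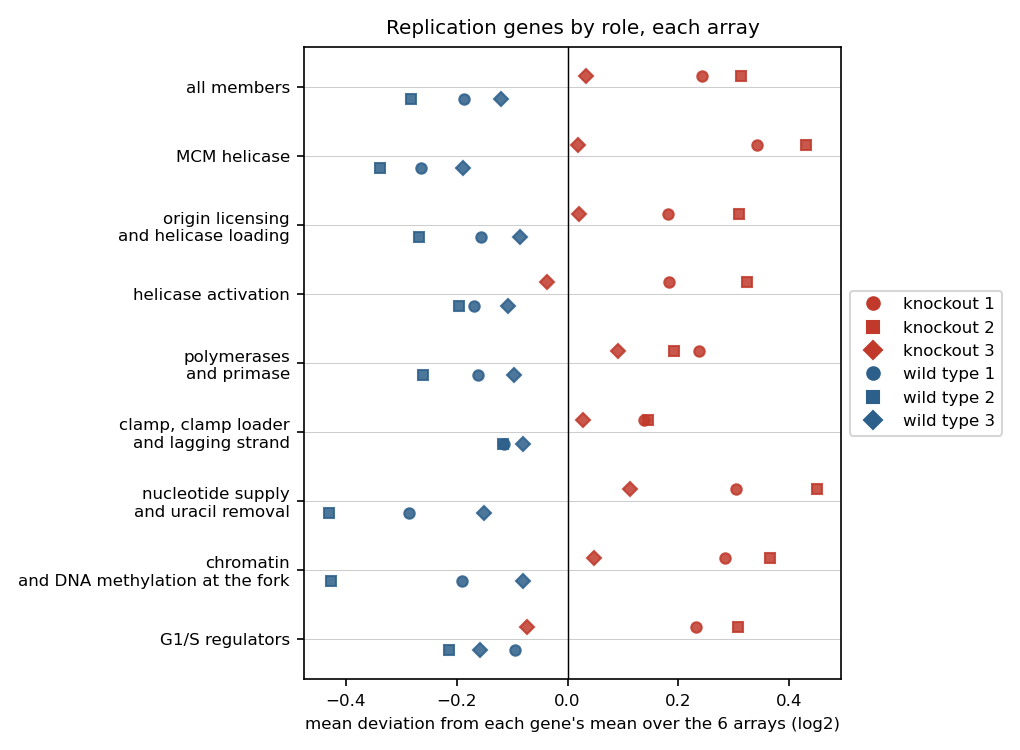
Mean deviation of each role's genes from their own means over the 6 arrays (log2), with 1 symbol per array. In each role the 3 knockout arrays lie to the right of the 3 wild-type arrays, and knockout array 3 is the lowest of the knockout arrays; for all members it stands at 0.03.

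The other genes of replication and nucleotide supply were taken from 6 further lists, also chosen with earlier results of these data known. Each gene was read from its brightest probe set, and values of its other probe sets are not given. Among 105 with a probe set, 22 rose and 4 fell, and 79 missed the threshold. Rises made up 21%, where 2.85% of all genes rose and 2.05% fell. Whether the 4 falls exceed the share of all genes was not tested. The median change was 0.19, and in 54.3% the knockout values all lay above the wild-type values, beside 20.7% of all genes. The 22 rises became 11 after quantile normalization of the values, beside 4 falls. With knockout array 1 left out, 0 of the 105 passed (limma; 51 were higher and 5 lower at an unadjusted p under 0.05), and likewise 0 with wild-type array 2 left out (49 higher and 5 lower). Rises and falls together came to 2 when knockout array 2 was left out, 5 for wild-type array 1 and 15 for wild-type array 3.

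In the list of further polymerase subunits, clamp loader and single-strand binding genes, 7 of 18 rose (38.9%) and 0 fell. Of all genes, 2.85% rose and 2.05% fell. At an unadjusted p under 0.05 (limma), 10 of the 18 were higher and 0 lower. Pole2, the second subunit of polymerase epsilon, read 7.62, 7.65 and 7.45 on the knockout arrays, against 6.99, 6.97 and 6.77 on the wild-type arrays, a rise of 0.67 (SE 0.09, limma adjusted p = 0.0158). The catalytic subunit Pole, given above, did not pass. The other 6 that rose were the nuclease Dna2, the ribonuclease H2 subunit Rnaseh2c, the single-strand binding subunits Rpa2 and Rpa3, the polymerase delta subunit Pold2 and the topoisomerase Top2a, by 0.37 to 0.67. Over 15 alternative settings the smallest change was 0.34 for Pole2, 0.14 for Top2a, 0.17 for Rnaseh2c and 0.25 for Dna2. Rpa2, Rpa3 and Pold2 stayed at 0.31 or above. In the licensing and initiation list, 3 of 15 rose (20%) and 0 fell (7 were higher and 0 lower at an unadjusted p under 0.05). They were Topbp1, which helps CDC45 onto the ring (0.53, SE 0.10, limma adjusted p = 0.0307), Dbf4, the activator of the kinase that fires origins (0.38, SE 0.08, limma adjusted p = 0.0451), and the MCM relative Mcm8 (0.30, SE 0.06, limma adjusted p = 0.0381). In the alternative settings their smallest changes were 0.23 for Topbp1, 0.14 for Dbf4 and 0.28 for Mcm8. Orc5, a subunit of the origin recognition complex, had the next smallest p (0.31, SE 0.07, limma adjusted p = 0.0502). Chromatin assembly genes gave 0 calls among 8 (limma; 4 were higher and 0 lower at an unadjusted p under 0.05). Asf1b, a histone chaperone, had the smallest p there (0.41, SE 0.10, limma adjusted p = 0.0562).

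Nucleotide supply held changes both ways. Of 24 measured genes 6 rose (25%) and 2 fell, where 2.85% of all genes rose and 2.05% fell. Dut, the dUTPase that keeps uracil out of DNA, read 7.90, 8.18 and 7.76 on the knockout arrays, against 7.10, 6.94 and 7.34 on the wild-type arrays, a rise of 0.82 (SE 0.13, limma adjusted p = 0.0206). Dctpp1, a further nucleotide pyrophosphatase, rose by 0.44 (SE 0.07, limma adjusted p = 0.0207). The purine synthesis enzymes Paics, Ppat and Atic rose by 0.46, 0.46 and 0.39, and the CTP synthase Ctps by 0.48. In all 4 genes wild-type array 2 was the lowest of the 6 arrays.

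The 2 falls of this nucleotide supply list were Samhd1 and Dck. Samhd1, which breaks down deoxynucleotides in non-dividing myeloid cells and is also known as an interferon-induced gene, read 11.47, 11.34 and 11.61 on the knockout arrays, against 12.17, 12.44 and 12.07 on the wild-type arrays. It fell by 0.76 (SE 0.11, limma adjusted p = 0.0177), in the opposite direction to Rrm2. Dck, the deoxycytidine kinase of the salvage route, read 11.73, 11.29 and 11.84 on the knockout arrays, against 12.41, 12.66 and 12.27 on the wild-type arrays, and it fell by 0.82 (SE 0.15, limma adjusted p = 0.0252). In both genes wild-type array 2 was the highest and knockout array 2 the lowest of the 6 arrays, and the genotypes did not overlap.

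**Figure D4:**
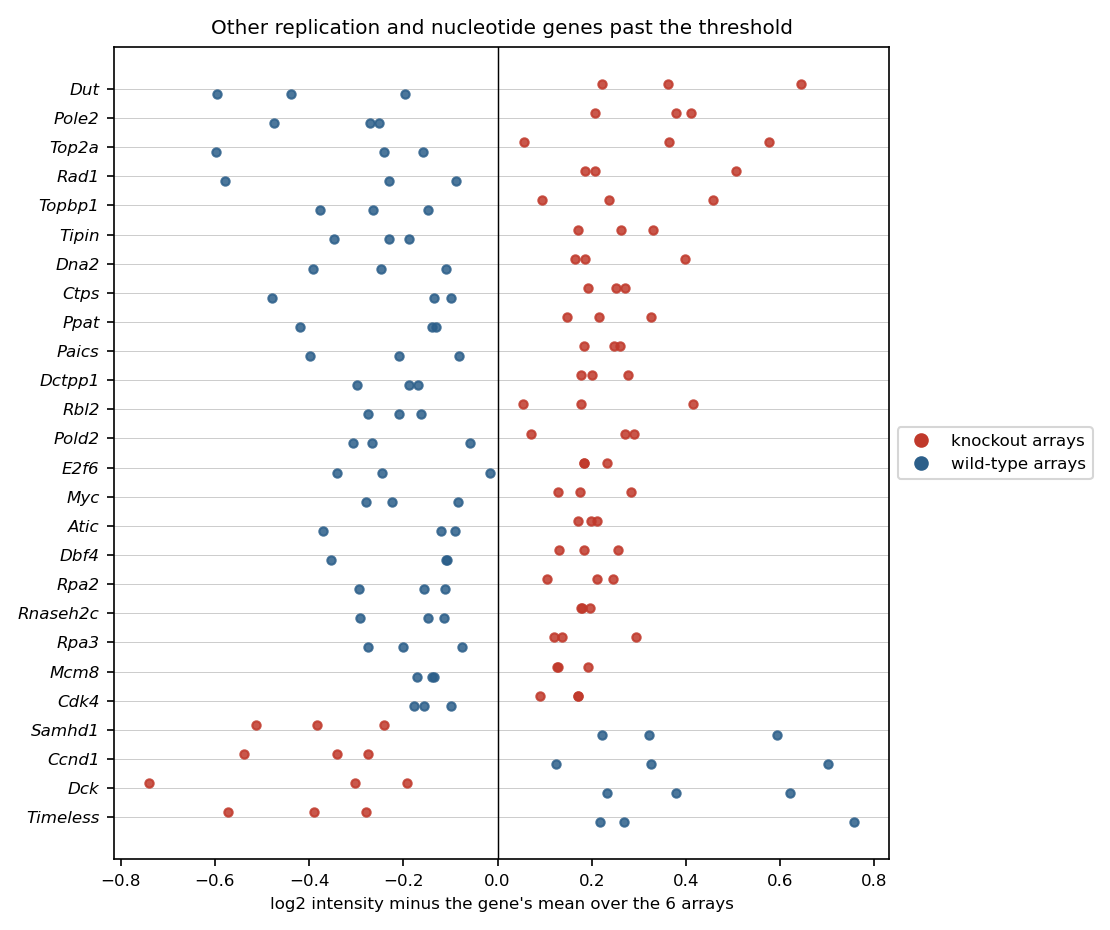
Log2 intensity minus the gene's mean over the 6 arrays for the 26 other replication and nucleotide genes past the threshold, knockout arrays in the upper row of each gene and wild-type arrays in the lower. The genotypes stand apart in every row; Dut leads the 22 rises at 0.82, and Samhd1, Ccnd1, Dck and Timeless are the 4 falls.

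Fork protection showed an opposed pair. TIMELESS and TIPIN bind each other and travel with the helicase. Tipin read 8.59, 8.66 and 8.50 on the knockout arrays, against 8.09, 7.98 and 8.14 on the wild-type arrays, a rise of 0.51 (SE 0.07, limma adjusted p = 0.0177). Timeless read 7.62, 7.44 and 7.73 on the knockout arrays, against 8.28, 8.77 and 8.23 on the wild-type arrays, and it fell by 0.83 (SE 0.14, limma adjusted p = 0.0229). Among the 16 measured genes of this list Rad1, part of the checkpoint clamp, also rose (0.60, SE 0.13, limma adjusted p = 0.0446), and 13 did not pass. Rises made up 12.5% of this list, where 2.85% of all genes rose and 2.05% fell. Donson, a gene of fork protection, had the next smallest p (0.29, SE 0.07, limma adjusted p = 0.0547).

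The calls among regulators upstream of replication were mostly rises. Of 24 genes of the E2F, retinoblastoma and G1 control list, 4 rose (16.7%) and 1 fell, beside 2.85% and 2.05% of all genes. Ccnd1, the gene of cyclin D1, which with CDK4 opens the way out of G1, read 9.08, 8.88 and 9.14 on the knockout arrays, against 9.54, 10.12 and 9.74 on the wild-type arrays. It fell by 0.77 (SE 0.14, limma adjusted p = 0.0252). Its partner Cdk4 rose by 0.29 (SE 0.06, limma adjusted p = 0.0464), and the growth regulator Myc by 0.39 (SE 0.08, limma adjusted p = 0.0329). The other rises were Rbl2, the gene of the retinoblastoma relative p130 (0.43, SE 0.10, limma adjusted p = 0.0437), and the repressor E2f6 (0.40, SE 0.09, limma adjusted p = 0.0439), both known as brakes on E2F targets. Of the 7 inhibitors of cyclin-dependent kinases, Cdkn2c rose (0.50, SE 0.11, limma adjusted p = 0.0411), and 6 did not pass. That is 14.3% rising, and at an unadjusted p under 0.05 (limma) 1 was higher and 2 lower. Cdkn1c read 7.10, 7.38 and 7.17 on the knockout arrays, against 7.60, 7.43 and 7.56 on the wild-type arrays. Its difference was -0.32 (SE 0.09, limma adjusted p = 0.0856), without overlap. Cdkn1a, which codes for p21, read 11.78, 11.93 and 11.90 on the knockout arrays, against 12.15, 12.38 and 12.04 on the wild-type arrays, a difference of -0.32 (SE 0.10, limma adjusted p = 0.103) without overlap.

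Genes of mitosis, which comes later in the cycle, had a smaller median change. Of 25 measured 5 rose (20%) and 0 fell, where 2.85% of all genes rose and 2.05% fell. At an unadjusted p under 0.05 (limma), 11 were higher and 0 lower. The median change was 0.25, beside 0.40 for the replication members. Whether the lists differ was not tested. The 5 were Smc2, Ube2c, Cdk1, Bub1 and Aurkb, by 0.45 to 0.84. Mki67, the common marker of dividing cells, read 9.07, 9.10 and 9.09 on the knockout arrays, against 9.08, 8.79 and 9.14 on the wild-type arrays, a difference of 0.08 (SE 0.09, limma adjusted p = 0.687) with overlapping genotypes.

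Several lists of cell type markers differed in mean level between genotypes, though few of their genes passed. Of 11 measured dendritic cell markers 0 passed (limma; 6 were higher and 0 lower at an unadjusted p under 0.05), with a median of 0.22. The mean level ranged from 7.94 to 8.38 in knockout, against 7.67 to 7.94 in wild type (log2). The mean deviation was 0.09, 0.43 and -0.01 on knockout arrays 1, 2 and 3, against -0.21, -0.29 and -0.01 on those of wild type, so knockout array 2 and wild-type array 2 were at the extremes here as in the replication genes. In 5 of these markers (45.5%) the knockout values all lay above the wild-type values, beside 20.7% of all genes. They were Ccl17, Dpp4, Ccr7, Ccl22 and Irf4, with differences of 0.87, 0.71, 0.71, 0.67 and 0.20. The smallest limma adjusted p of the list was 0.0519, for Ccr7. The mean was higher in knockout in 8 markers and lower in 3. Xcr1, which marks a subset of dendritic cells, lay under the 20th percentile of all values. Neutrophil markers had a median of -0.62, with 0 of 10 past the threshold (limma; 1 was higher and 7 lower at an unadjusted p under 0.05). Their mean level was 9.35 to 10.01 in knockout and 10.05 to 10.30 in wild type. Of 10 fibroblast markers 3 fell and 0 rose, where 2.05% of all genes fell and 2.85% rose. They were Col1a2 (-1.29), Dcn (-1.10) and Col3a1 (-0.48), the last with a mean under the 20th percentile of all values. The list's mean level was 5.72 to 5.80 in knockout and 6.10 to 6.13 in wild type. Of 11 macrophage markers 2 fell, Fcgr1 and Mertk, and 0 rose, beside 2.05% and 2.85% of all genes. That list's mean level was 11.66 to 11.82 in knockout and 11.89 to 11.99 in wild type. The part of these cells in the replication result was not tested.

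Myeloid progenitors divide, and their markers were set beside the members for that reason. Of 11 measured, 1 rose (9.09%) and 0 fell, beside 2.85% and 2.05% of all genes. At an unadjusted p under 0.05 (limma), 2 were higher and 4 lower, and the median change was -0.09. The mean was higher in knockout in 4 and lower in 7. Sox4, a transcription factor of progenitors and of other cells, read 9.52, 10.01 and 9.35 on the knockout arrays, against 8.67, 7.98 and 8.79 on the wild-type arrays, a rise of 1.14 (SE 0.22, limma adjusted p = 0.0305). The receptor gene Kit had 7.34, 7.83 and 7.57 on the knockout arrays, against 6.69, 7.17 and 7.11 on the wild-type arrays, a difference of 0.59 (SE 0.15, limma adjusted p = 0.0669) without overlap. Mpo and Ms4a3, genes of granulocyte precursors, differed the other way, by -0.34 (SE 0.11, limma adjusted p = 0.113) and -0.57 (SE 0.17, limma adjusted p = 0.0959). Prtn3 and Ctsg were lower too, by -0.48 (SE 0.17, limma adjusted p = 0.163) and -0.32 (SE 0.11, limma adjusted p = 0.142). The list's mean level was 6.08 to 6.18 in knockout and 6.05 to 6.26 in wild type, so as a whole it overlapped between genotypes. Cd34, a marker of early progenitors, lay under the 20th percentile of all values. The lists for epithelial or tumour cells, B cells, T or NK cells, mast cells or basophils and erythroid cells gave 0 calls among 10, 6, 6, 5 and 4 genes, with medians between -0.06 and 0.04 (limma; 1 epithelial marker was higher, and 1 epithelial and 1 B cell marker lower, at an unadjusted p under 0.05).

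**Figure D5:**
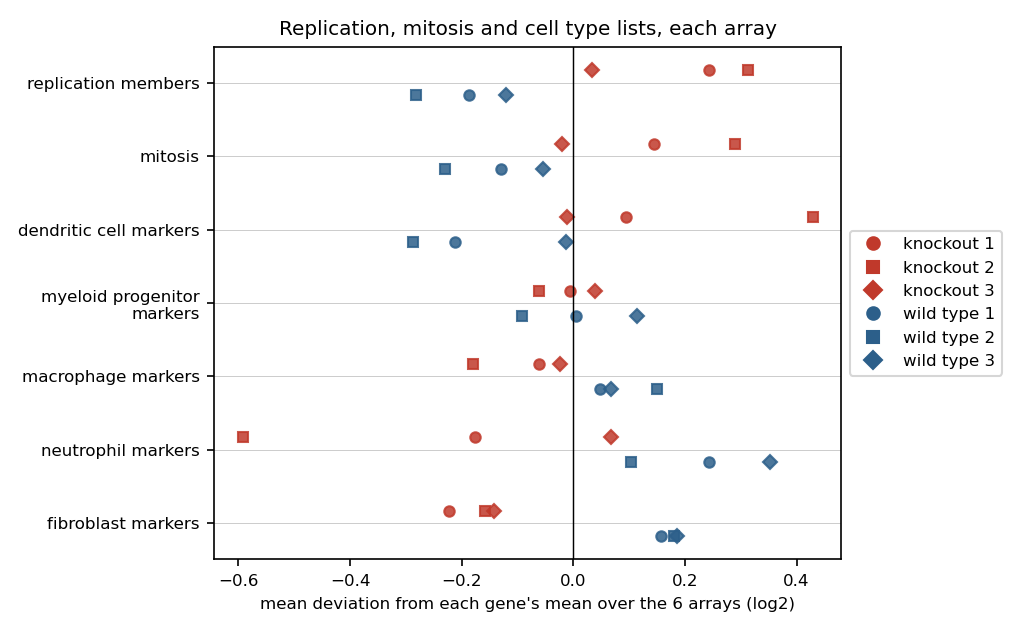
Mean deviation from each gene's mean over the 6 arrays (log2) for the replication members, the mitosis list and 5 lists of cell type markers, with 1 symbol per array. Knockout array 2 is the highest array for replication members, mitosis and dendritic cell markers (0.31, 0.29 and 0.43) and the lowest for macrophage and neutrophil markers (-0.18 and -0.59), while progenitor markers overlap between genotypes.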

How the data were processed

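The deposited table holds log2 values of 45101 probe sets on 6 arrays, a scale read from their range. Per the submitters' processing notes, RMA, GCRMA 2.30.0, limma 3.14.4 and affy 1.36.1 were among the tools, with no role stated, so it is unknown whether GCRMA or RMA made the values and how far dim probe sets were pulled down. Either method makes the arrays' distributions alike, which hides a shift shared by most genes.

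Without the 64 control probe sets, 45037 were fitted on genotype alone in R 4.3.3 with limma 3.58.1 (lmFit, then eBayes). P-values were adjusted over all of them by Benjamini-Hochberg, with a threshold of 0.05. Of these, 34945 had 1 gene in the platform annotation, 932 several and 9160 were unnamed here; symbols were updated through a RefSeq table. Differences are knockout minus wild type, and SEs are limma's moderated ones. The smallest two-sided p of an exact permutation of the arrays is 0.1. Simulated arrays with known changes were used to test the code. Promoters came from RefSeq, build GRCm38.p6.

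The members and all lists were chosen with earlier results of these data known. Named were all members, list genes past the threshold, up to 4 genes with the smallest p in each further replication list, and Fabp5. Mki67 and the cell type markers were named after their values were seen. Alternatives were quantile normalization, median centring, probe sets above the median, array weights, a floor at the 20th percentile, a replicate block, trend and robust settings of eBayes, no _s_at or _x_at probe sets, averaging the probe sets of a gene, and leaving out each array. Figures were drawn with matplotlib 3.10.9.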

Additional observations from a re-analysis of the deposited data

How the results depend on the processing

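The median change of the members (0.33 to 0.47) and the fall of Fabp5 (-6.23 to -6.10 with 1 array left out) kept their direction in every alternative, as did each of the 18 members that rose. The number of calls did not hold. The 18 members called became 10 after quantile normalization, 0 with a floor at the 20th percentile (limma; 24 higher and 1 lower at an unadjusted p under 0.05), 1 with the replicate number as a block, and 0 to 20 with 1 array left out. The 26 other replication genes called became 15, 0, 1 and 0 to 22 in the same settings. The number of all probe sets called in knockout against wild type, 1691, became 71 with the floor, 92 with the block, 2692 above the median level only, 3126 with trend and robust settings, and 40 to 1360 with 1 array left out. The floor made 7407 probe sets constant and lowered limma's prior degrees of freedom to 0.469, against 5.04. The block and the left-out arrays leave fewer residual degrees of freedom. The fits with 1 array left out all leave equally many, yet gave 0 to 20 member calls. Why the counts moved was not tested for these fits or for quantile normalization. The block has no support as a pairing: deviations of same-numbered arrays correlated at -0.06, -0.04 and -0.13. Changes of sign occurred in members that did not pass. Orc1 became 0.0077 with array weights and 0.086 as the mean of its probe sets, Pola2 0.011 with median centring and 0.032 with array weights, and Tyms 0.012 as the mean of its probe sets. With 1 array left out, Chaf1b ranged from -0.014 to 0.086, Mcm10 from -0.15 to 0.0029, Orc1 from -0.085 to 0.092, Pola2 from -0.043 to 0.044 and Tyms from -0.13 to 0.036. Probe sets near the 20th percentile, such as those of Tyms, had little signal to compare.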
